A study of Mus musculus with 6 samples.

Results

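The genes described here are the D-type cyclins Ccnd1, Ccnd2 and Ccnd3, the kinases Cdk4 and Cdk6 that they activate, the CDK inhibitors Cdkn1a, Cdkn1b, Cdkn2c and Cdkn2d, and the retinoblastoma gene Rb1. They were chosen by symbol, as 10 of the 53733 named rows of the count table, and each symbol had 1 row. All 10 were among the 13652 rows with enough counts to be tested. The cells were a mouse acute myeloid leukaemia line made from foetal liver cells with 2 retroviral vectors, one driving MLL-AF9 and a luciferase at all times and one holding FLT3-ITD and DsRED behind a doxycycline-responsive promoter. Both groups therefore carried both oncogene vectors in the same single line, grown in NSG mice, an immunodeficient strain injected with the cells through the tail vein. In ON (n = 3 mice) doxycycline was given throughout, and in OFF (n = 3 mice) it was taken away for 48 h after 96 h of engraftment. The sources used here do not state the age or sex of the mice or the sorting gate. RNA came from viable leukaemic cells sorted from bone marrow, and the comparison asks how loss of FLT3-ITD changes the transcripts of these genes inside the animal. The groups also differ in doxycycline itself. With no doxycycline control lacking the transgene, effects of the drug and of FLT3-ITD cannot be told apart.

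D-type cyclins bind CDK4 and CDK6 and carry mitogen signals into the G1 phase of the cell cycle, where the active kinases phosphorylate RB and release E2F factors that transcribe genes for DNA replication. The INK4 inhibitors, here Cdkn2c (p18) and Cdkn2d (p19), bind CDK4 and CDK6 alone. The CIP/KIP inhibitors, here Cdkn1a (p21) and Cdkn1b (p27), block CDK2 complexes and can also help D-type cyclins to assemble with their kinases. In blood cells the 3 D-type cyclins overlap in function, growth factor receptors sustain their transcription, and CDK6 is the more abundant partner in many leukaemias.

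The 6 libraries, 1 per mouse, held 8347588 to 9329917 counts. Levels are given as CPM, counts relative to the scaled size of the library, in which 1 count was worth at most 0.124 CPM. The libraries were made from mRNA 3' ends, so a count does not grow with gene length, and levels of different genes are not compared. Rows of the ribosomal RNA locus took 10.1% to 18.0% of counts. OFF replicate 3 stood apart from the other OFF libraries on the second principal component (-29.3 against 23.9 and 14.4, with ON between -6.91 and -0.521). The row of the endogenous Flt3 gene does not check the transgene, which was not analysed here. In sorted bulk cells, fewer cells of a type and less RNA per cell cannot be told apart.

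Ccnd1, Ccnd2 and the inhibitor Cdkn1a fell after withdrawal, and the inhibitors Cdkn1b and Cdkn2c and the RB gene Rb1 rose. Ccnd3, Cdk4, Cdk6 and Cdkn2d did not pass the test. Thus 6 of 10 genes were called at an adjusted p of 0.05 by edgeR's quasi-likelihood test, 3 lower and 3 higher, against 34.8% of all tested rows in either direction, 17.5% lower and 17.3% higher. Ccnd1, Ccnd2 and Cdkn1a were called lower and fell at least 2-fold, and 5.51% of tested rows met both conditions. The values of the 3 ON and 3 OFF libraries did not overlap for the same 6 genes, whereas 48.3% of tested rows had no overlap. The median log2 fold change of the 10 genes was -0.0176, close to the 0.00432 of all tested rows, and their median size without regard to sign was 0.562 against 0.334.

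**Figure D1:**
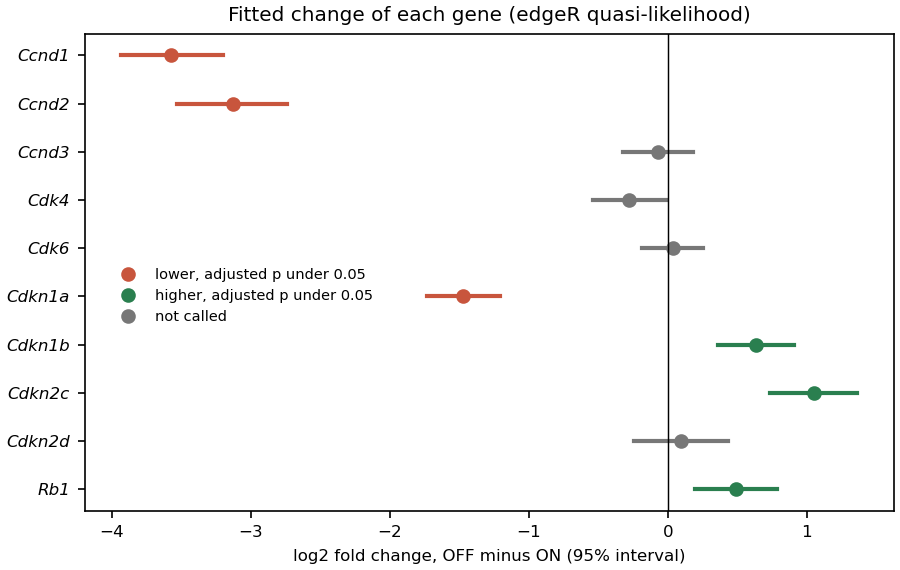
Fitted log2 fold change, OFF minus ON, of each of the 10 genes (points) with its 95% interval (lines), from 3 mice per group. Ccnd1 (-3.57) and Ccnd2 (-3.13) lie far to the left, Cdkn1a at -1.47, and Cdkn2c (1.05), Cdkn1b (0.63) and Rb1 (0.49) to the right, while the intervals of Ccnd3, Cdk6 and Cdkn2d span 0.

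Ccnd1 encodes cyclin D1, a D-type cyclin whose transcription follows growth factor and ERK signalling (GRCm38, chromosome 7, 144929931 to 144939925, minus strand). Its level was 26.7, 25.1 and 27.4 CPM in the ON libraries and 2.44, 2.12 and 2.09 CPM in the OFF libraries. All OFF values lay far below all ON values, and the spread within each group was small. The fall was 11.8-fold (log2 fold change -3.57, SE 0.17, adjusted p = 2.22e-08), and Ccnd1 had the smallest p of all tested rows, rank 1 of 13652. The OFF level rested on 22, 19 and 19 counts, so it was low but above the limit of 3 counts that a count of 0 allows.

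Ccnd2 encodes cyclin D2, which cytokine receptors and STAT5 induce in blood cells (chromosome 6, 127125162 to 127152193, minus strand). The ON mice gave 44.7, 53.4 and 43.2 CPM of Ccnd2, the OFF mice 7.11, 3.68 and 5.28 CPM. The groups were again widely separated, with OFF replicate 1 the highest of the OFF libraries. The fall was 8.77-fold (log2 fold change -3.13, SE 0.19, adjusted p = 2.01e-07), rank 3 by p and rank 27 by size of change, where Ccnd1 had rank 13.

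Ccnd3 encodes cyclin D3, a D-type cyclin of haematopoietic cells (chromosome 17, 47505051 to 47599691, plus strand). Its row held 311, 342 and 339 CPM in ON and 281, 287 and 376 CPM in OFF. OFF replicates 1 and 2 were below all ON libraries and OFF replicate 3 was above them, so the groups overlapped. The log2 fold change was -0.07 (SE 0.12, 95% interval -0.325 to 0.182, adjusted p = 0.681).

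**Figure D2:**
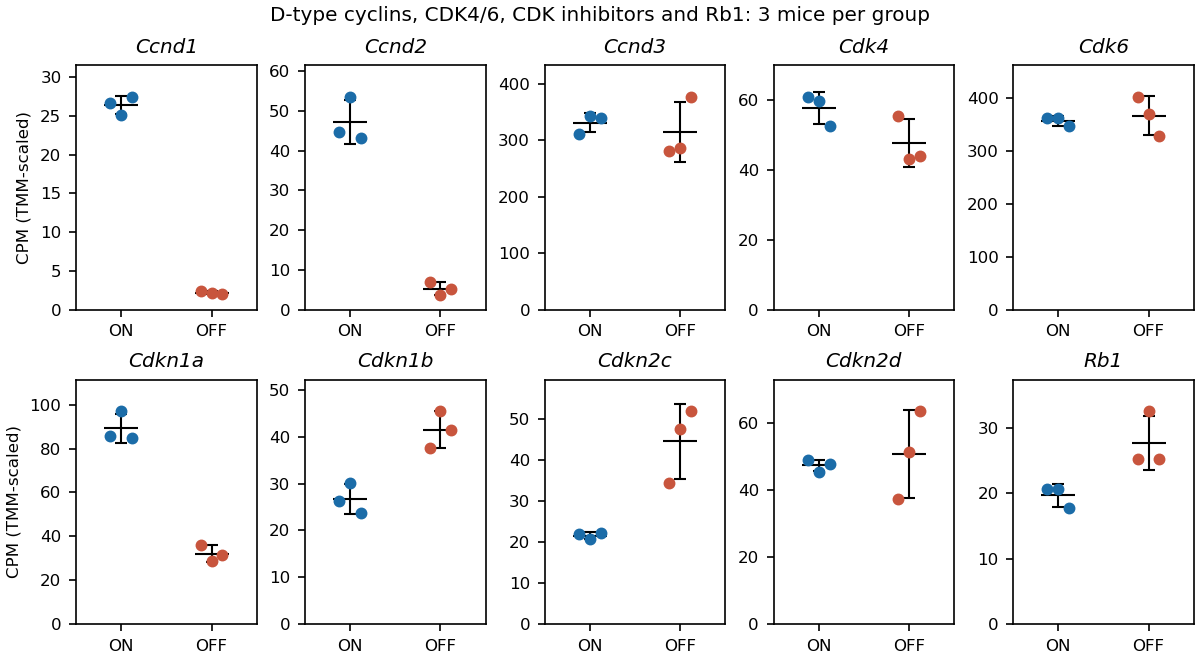
Level of each gene in CPM (y axis, from 0) in the 3 ON and 3 OFF libraries (points, 1 per mouse), with the mean and SD (bars). Ccnd1 and Ccnd2 drop to 2.22 and 5.35 CPM on average in OFF, Cdkn1a to 32.2 CPM, while Cdkn2c reaches 44.7 CPM, and the OFF points of Ccnd3, Cdk6 and Cdkn2d lie on both sides of the ON points.

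The Ccnd3 row could not be separated from that of Bysl, a ribosome assembly gene on the opposite strand. Their exons share 361 bases at the 3' end of Ccnd3, where this kit places its reads, and the sources used here do not state the strand setting of the counting. Ccnd3 and Bysl held 2726 and 2840 counts in ON replicate 1, 2999 and 3132 in ON replicate 2, and 2730 and 2813 in ON replicate 3. In the OFF libraries they held 2531 and 2570, 2575 and 2573, and 3415 and 3419 counts. The ratio of the rows was therefore between 0.958 and 0.97 for ON libraries and between 0.985 and 1 for OFF libraries, which means nearly equal counts in both rows of every library. Reads of cyclin D3 and of Bysl cannot be told apart in these values, and the Ccnd3 row does not show whether cyclin D3 transcripts changed. A processed copy, Ccnd3-ps, matched 96.8% of 502 aligned bases at the 3' end of Ccnd3 and held 1 count in all libraries together.

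Other members also share 3' exonic bases with a gene on the opposite strand. Ccnd1 shares 1100 bases with Oraov1 (named LTO1 in the annotation), whose row held 177, 171 and 168 counts in ON and 71, 57 and 61 in OFF (log2 fold change -1.53, adjusted p = 4.91e-06). Ccnd1 itself held 234, 220 and 221 counts in ON. Even if every Oraov1 count were also a Ccnd1 count, 57, 49 and 53 counts of Ccnd1 would remain in ON, above the 22, 19 and 19 counts of its whole row in OFF. Ccnd2 shares 372 bases, starting 622 bases from its 3' end, with the antisense gene Gm43126. That row also fell, from 40, 62 and 50 counts in ON to 4 in each OFF library (log2 fold change -3.70, adjusted p = 4.14e-06). Without as many counts as Gm43126 holds, Ccnd2 would keep 351, 407 and 298 counts in ON and 60, 29 and 44 in OFF, so its groups stay apart.

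**Figure D3:**
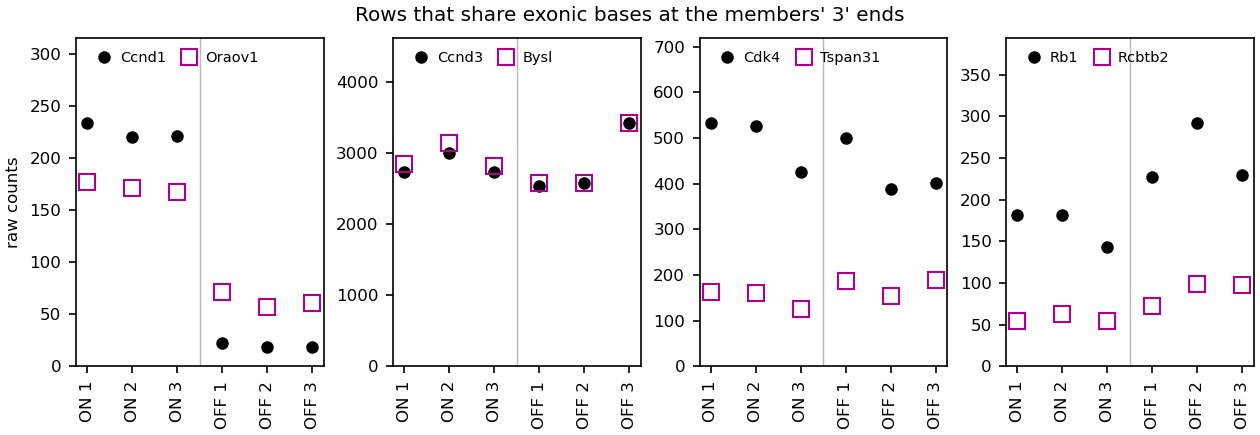
Raw counts per library (y axis) of 4 members (filled points) and of the row on the opposite strand that shares exonic bases at their 3' end (open squares), ON libraries to the left of the grey line. Ccnd3 and Bysl coincide in every library, whereas Ccnd1 lies above Oraov1 in ON and below it in OFF, and Cdk4 and Rb1 stay above Tspan31 and Rcbtb2.

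Cdk4, a partner kinase of D-type cyclins (chromosome 10, 127063534 to 127067920, plus strand), measured 60.9, 59.9 and 52.7 CPM in the ON mice against 55.6, 43.3 and 44.2 CPM in the OFF mice. OFF replicate 1 lay within the ON range and the other two OFF libraries below it. The log2 fold change was -0.28 (SE 0.12, adjusted p = 0.0966), with an unadjusted p of 0.0402, and without OFF replicate 1 it passed as lower (-0.40, adjusted p = 0.0101). Its last exons share 641 bases with Tspan31 on the opposite strand, which held 163, 160 and 125 counts in ON and 187, 155 and 190 in OFF, against 533, 526 and 425 and 501, 389 and 402 for Cdk4. Less the counts of Tspan31, Cdk4 would keep 370, 366 and 300 counts in ON and 314, 234 and 212 in OFF. Counts of Cdk4 per count of Tspan31 were 3.27, 3.29 and 3.4 in ON and 2.68, 2.51 and 2.12 in OFF. Whether shared reads hide a fall of Cdk4 was not tested. Cdk6, the other partner kinase (chromosome 5, 3341485 to 3531008, plus strand), measured 363, 363 and 347 CPM in the ON mice against 402, 371 and 328 CPM in the OFF mice. The OFF libraries lay on both sides of the ON range, with a log2 fold change of 0.04 (SE 0.10, 95% interval -0.184 to 0.256, adjusted p = 0.818). Its only overlapping row in the table, Gm17590, held at most 18 counts in a library.

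The 250 bases before the Cdk4 start are shown because they hold a cluster of E-boxes, CACGTG, the site bound by MYC and related factors. Letters follow RefSeq on GRCm38.p6, plus strand, chr10:127063285-127063534, with motif matches in capitals.

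Cdk4: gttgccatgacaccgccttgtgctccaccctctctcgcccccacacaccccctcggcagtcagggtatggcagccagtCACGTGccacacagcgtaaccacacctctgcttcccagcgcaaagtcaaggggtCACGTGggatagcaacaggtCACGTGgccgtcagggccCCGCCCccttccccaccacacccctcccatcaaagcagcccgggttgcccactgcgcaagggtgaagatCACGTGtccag

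The 4 E-boxes begin at positions -172, -118, -98 and -11 from the start, and CCGCCC at -80 is the reverse complement of the SP1 motif GGGCGG. One or more E-boxes stood in 6.02% of 32851 RefSeq promoters of this length, and 4 or more in 7 of them (0.0213%). A match describes letters and not binding.

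Cdkn1a encodes p21, an inhibitor that p53 and many growth signals induce (chromosome 17, 29090976 to 29100727, plus strand). ON libraries held 85.8, 96.9 and 84.7 CPM of Cdkn1a, and OFF libraries held 36.2, 28.8 and 31.5 CPM. Every OFF library was below every ON library, and the fall was 2.77-fold (log2 fold change -1.47, SE 0.12, adjusted p = 1.06e-06). Cdkn1b encodes p27, an inhibitor held down by PI3K signalling through FOXO factors (chromosome 6, 134920401 to 134925513, plus strand). It moved the other way, from 26.3, 30.2 and 23.7 CPM in ON to 37.5, 45.4 and 41.5 CPM in OFF. The groups did not overlap, and the rise was 1.55-fold (log2 fold change 0.63, SE 0.13, adjusted p = 0.00147). The 2 CIP/KIP genes thus changed in opposite directions: counts of Cdkn1a per count of Cdkn1b were 3.27, 3.21 and 3.58 in ON and 0.964, 0.635 and 0.759 in OFF.

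Cdkn2c encodes p18 (chromosome 4, 109660876 to 109667189, minus strand). ON libraries held 21.9, 20.7 and 22.2 CPM of Cdkn2c, and OFF libraries held 34.4, 47.7 and 51.9 CPM. All OFF libraries were higher, with OFF replicate 1 the lowest of them, and the rise was 2.07-fold (log2 fold change 1.05, SE 0.15, adjusted p = 9.07e-05). Cdkn2d, which encodes p19 (chromosome 9, 21288410 to 21291407, minus strand), measured 48.8, 45.4 and 47.6 CPM in the ON mice against 37.2, 51.3 and 63.3 CPM in the OFF mice. OFF replicate 1 was below the ON range and the other two above it, so that its log2 fold change of 0.10 did not pass (SE 0.16, 95% interval -0.240 to 0.436, adjusted p = 0.668). Both INK4 genes were lowest in OFF replicate 1 and highest in OFF replicate 3 among the OFF mice, and their ratio within a library varied less: counts of Cdkn2c per count of Cdkn2d were 0.450, 0.456 and 0.466 in ON and 0.925, 0.928 and 0.821 in OFF.

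A start of Cdkn1b and one of Cdkn2c are shown because these inhibitors rose. RefSeq lists 2 starts for Cdkn2c, and the printed one is the farther upstream. The other, at 109665372, held none of the motifs searched and had 42.8% G and C before it, against 77.2% before the printed start. Both are RefSeq letters on GRCm38.p6, 250 bases before the start, Cdkn1b at chr6:134920151-134920400 on the plus strand and Cdkn2c at chr4:109666757-109667006 on the minus strand, with motif matches in capitals.

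Cdkn1b: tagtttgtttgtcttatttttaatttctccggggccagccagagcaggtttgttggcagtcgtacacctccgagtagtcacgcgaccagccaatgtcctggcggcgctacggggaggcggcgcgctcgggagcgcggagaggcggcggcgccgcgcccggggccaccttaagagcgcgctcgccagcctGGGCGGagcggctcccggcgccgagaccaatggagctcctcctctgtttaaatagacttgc

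Cdkn2c: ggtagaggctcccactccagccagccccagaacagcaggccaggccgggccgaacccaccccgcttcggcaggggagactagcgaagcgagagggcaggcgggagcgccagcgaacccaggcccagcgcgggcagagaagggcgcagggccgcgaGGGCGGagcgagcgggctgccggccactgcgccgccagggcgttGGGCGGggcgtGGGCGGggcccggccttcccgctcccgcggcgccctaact

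Only the SP1 motif GGGCGG matched, at -61 in Cdkn1b and at -95, -51 and -40 in Cdkn2c, and 32.7% of all promoters hold it. The other motifs searched on both strands, which do not contain one another, were TTCNNNGAA (STAT, in 7.02% of promoters), GTAAACA (FOXO, 3.17%), TGANTCA (AP-1, 6.75%), TGACGTCA (CRE, 1.55%), CACGTG (E-box, 6.02%), CCGGAAG (ETS, 6.91%), GCGCGAAA (E2F, 0.256%) and TATAAA (the TATA box, 12.4%). RefSeq gave 10 promoters for 7 of the 10 genes. Among these, FOXO and ETS letters matched in 1 each, both in Ccnd3, the E-box matched in Cdk4 and Cdk6, and TATAAA in Cdk6.

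Rb1, the pocket protein that CDK4 and CDK6 phosphorylate (chromosome 14, 73183673 to 73325822, minus strand), measured 20.7, 20.6 and 17.7 CPM in the ON mice against 25.2, 32.5 and 25.3 CPM in the OFF mice. The groups did not overlap, and the rise was 1.41-fold (log2 fold change 0.49, SE 0.14, adjusted p = 0.0133). Rb1 no longer passed when ON replicate 3 (adjusted p = 0.0834) or OFF replicate 2 (adjusted p = 0.0820) was left out. Rcbtb2 and Lpar6, on the opposite strand, share 488 and 408 exonic bases with Rb1 and were also higher in OFF (log2 fold changes 0.57 and 0.97, adjusted p = 0.0277 and 0.000851). Exons of Rcbtb2 reach the 3' end of the Rb1 gene, whereas those of Lpar6 come no closer to it than 54222 bases. The last 500 bases of an Rb1 transcript do match Lpar6 over 214 bases, as they match Rcbtb2 over 383. Less the counts of Rcbtb2, Rb1 would keep 127, 118 and 89 counts in ON and 155, 193 and 132 in OFF, without overlap. Less the counts of Lpar6 it would keep 123, 116 and 94 in ON and 97, 163 and 134 in OFF, which overlap.

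Ratios within a library do not depend on how libraries are scaled, and 4 were compared. Ccnd1 per count of Cdk6 was 0.0737, 0.0690 and 0.0790 in ON and 0.00608, 0.00571 and 0.00637 in OFF, a log2 difference of -3.61. Ccnd2 per count of Cdk6 was 0.123, 0.147 and 0.124 in ON and 0.0177, 0.00992 and 0.0161 in OFF, a difference of -3.21. The Cdkn1a to Cdkn1b ratio differed by -2.11 and the Cdkn2c to Cdkn2d ratio by 0.96. In all 4 the groups did not overlap, and each gave a two-sided exact permutation p of 0.1 (0.1 adjusted over the 4), the smallest that 3 against 3 mice allow. The 4 ratios were chosen with earlier results of these data known, so their separation adds no support to the calls of the members.

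In 7 lists of other cell cycle genes, 26 of 89 tested members (29.2%) were called, against 34.8% of all tested rows. The lists cover the G1 to S phase pathway and also other cyclins and CDKs. Of the 26, 12 were higher and 14 lower, and the median log2 fold change of the 89 was -0.0259. For 15 of the 26 the call held in all 6 fits that left out 1 library. These fits called between 16 (without ON replicate 3) and 33 (without OFF replicate 3) list genes. Of the other CDK inhibitors, Cdkn1c (p57, another CIP/KIP gene) had a mean of 8.74 ± 1.66 CPM in ON and rose to 22.7 ± 6.31 CPM in OFF (SD, n = 3 mice; log2 fold change 1.38, adjusted p = 0.000321), and its OFF libraries held 15.8, 24.4 and 28.1 CPM. Cdkn3, a CDK phosphatase, was also called (0.35, adjusted p = 0.0406), but it did not pass once OFF replicate 2 or any 1 ON library was removed (adjusted p = 0.0887 to 0.148). Cdkn2a, whose products inhibit CDK4 and CDK6 and stabilise p53, gave 0.01 (adjusted p = 0.970), and Cdkn2b held 1 to 5 counts per library and was not tested.

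**Figure D4:**
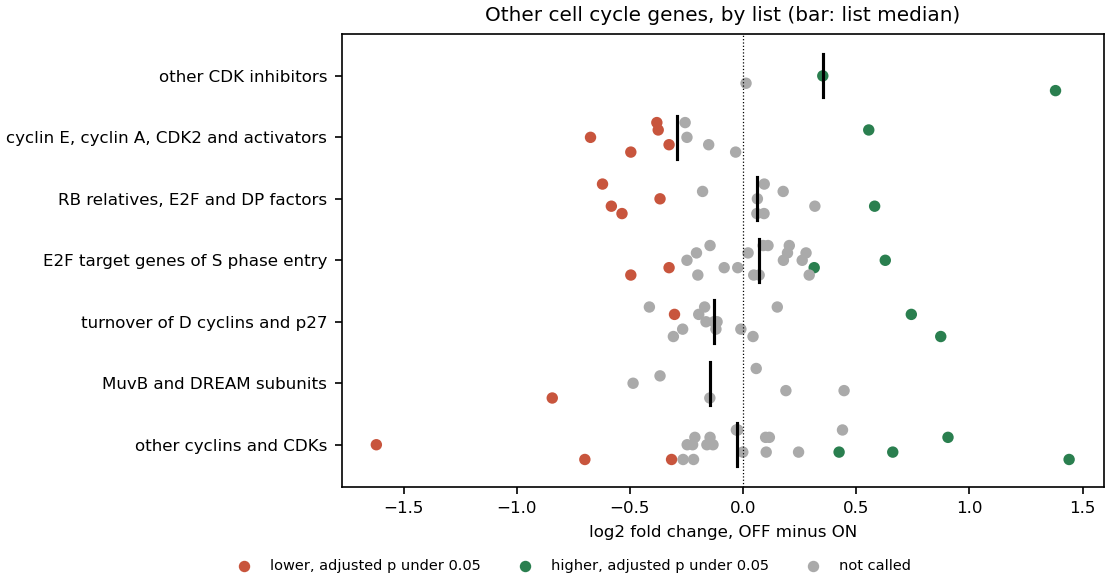
Log2 fold change, OFF minus ON, of every tested gene in 7 lists of cell cycle genes (points, coloured by the test), with each list's median (black bars). Cdkn1c and Ccng2 lie farthest right and Cdk18 farthest left, and most E2F target genes sit near 0 in grey.

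The cyclins and kinases that act after the D-type cyclins gave 5 lower and 1 higher of 10 genes (median -0.29), where 17.5% of all tested rows were lower and 17.3% higher. Only 2 were lower without ON replicate 1 or ON replicate 3, and 7 without OFF replicate 3. Ccne1, a cyclin that activates CDK2, fell from 27.4 to 19.4 CPM (-0.50, adjusted p = 0.00804; 0.0525 without ON replicate 3), as did Cdk7, the CDK-activating kinase (-0.67, adjusted p = 0.00156). Cdc25a, Ccne2 and Ccnh gave -0.38, -0.33 and -0.38, calls lost without at least 1 library (adjusted p up to 0.0828, 0.165 and 0.143). Ccne2 shares 609 exonic bases near its 3' end with Ints8 on the opposite strand, which gave -0.31 (adjusted p = 0.0948). Cdk2 itself rose, from 55.6 to 81.7 CPM (0.56, adjusted p = 0.00809), and the OFF mice differed widely at 62.5, 83.3 and 99.2 CPM.

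Of RB relatives, E2F and DP factors, 4 of 12 genes fell and 1 rose (median 0.06), so 5 of 12 were called, against 34.8% of all tested rows. Rbl2, the RB relative p130 of resting cells, had a mean of 26.8 ± 1.23 CPM in ON and rose to 40.2 ± 2.24 CPM in OFF (SD, n = 3 mice; 0.58, adjusted p = 0.00119). Its 3' exons share 693 bases with Aktip on the opposite strand, which was also higher (0.40, adjusted p = 0.0315). E2f3 (-0.62, adjusted p = 0.00504), E2f4 (-0.54, adjusted p = 0.00468) and E2f5 (-0.58, adjusted p = 0.00645) fell. E2f5 shares 26 bases at its 3' end with 1810022K09Rik on the opposite strand, a more abundant row that also fell (-0.54, adjusted p = 0.00372, from 55.1 to 37.9 CPM). E2f6 gave -0.37 and failed the test once OFF replicate 2 or any 1 ON library was removed (adjusted p = 0.0931 to 0.156). E2f1, the activator most tied to S phase entry, gave 0.06 (adjusted p = 0.741).

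Genes that E2F factors induce at S phase entry gave 2 higher and 2 lower of 21 (median 0.07), where 34.8% of all tested rows were called. Without OFF replicate 3 the counts were 4 higher and 3 lower, without OFF replicate 1 they were 4 and 2, without ON replicate 3 they were 1 and 0, without ON replicate 1 or 2 they were 1 and 1, and without OFF replicate 2 they were 1 and 2. Tk1, the thymidine kinase, rose from 65.9 to 102 CPM (0.63, adjusted p = 0.000513), and Mcm3, a helicase subunit, gave 0.31 (adjusted p = 0.0343, up to 0.199 without 1 library). The 2 lower members were the cyclin E genes above. The other 17 did not pass, among them Pcna (0.02, adjusted p = 0.901). Of MuvB and DREAM subunits, which hold E2F sites silent in resting cells or drive mitotic genes, 1 of 7 was called, and 2 without ON replicate 1: Mybl2, itself an E2F target, fell from 58.6 to 32.7 CPM (-0.84, adjusted p = 0.000170). Lin37 and Lin54 gave 0.45 and -0.37 without passing (adjusted p = 0.225 and 0.0680).

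Genes that act on the turnover of D-type cyclins and p27 gave 2 higher and 1 lower of 15 (median -0.13). Of all tested rows, 34.8% were called. Usp2, a deubiquitinase that stabilises cyclin D1, rose (0.87, adjusted p = 0.00126), as did Fbxo4, an F-box protein linked to cyclin D1 degradation (0.74, adjusted p = 0.00668). Ddb1 gave -0.30 (adjusted p = 0.0361) and, of the 6 fits without 1 library, passed in the one without OFF replicate 3. That fit gave 3 higher and 2 lower genes. Skp2, which marks p27 for degradation, gave 0.04 (adjusted p = 0.821). Among other cyclins and CDKs, 4 of 24 genes rose and 3 fell (median -0.03), so 7 of 24 were called, where 34.8% of all tested rows were. The number that fell was 1 without OFF replicate 2 or any 1 ON library, and 4 without OFF replicate 1. Ccng2, a cyclin of arrested cells and a FOXO target, rose from 6.27 to 16.9 CPM (1.44, adjusted p = 0.00272), Ccni by 0.66 and Cdk19 by 0.91, while Cdk18 fell from 4.45 to 1.44 CPM (-1.62, adjusted p = 0.000572). Ccnb2, a cyclin of mitosis, gave 0.42 (adjusted p = 0.00751, but 0.0676 without ON replicate 3). Ccnt1 and Cdk8, which act in transcription, gave -0.32 and -0.70 (adjusted p = 0.0422 and 0.0213), with adjusted p up to 0.155 and 0.0734 without 1 library. The Cdk8 change was -0.448 without OFF replicate 3.

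Markers of the myeloid line were present in both groups, except that Kit held at most 0.569 CPM. Of 12 such markers 11 were tested, 8 were higher in OFF and none lower. Of all tested rows, 17.3% were higher in OFF and 17.5% lower. The 12 markers summed to 2520 to 2940 CPM in ON and 4430 to 4660 CPM in OFF. Of 10 genes of maturing neutrophils 8 were higher and none lower, with sums of 2470 to 2640 CPM in ON and 3620 to 8350 CPM in OFF. Within OFF, Camp, a gene of neutrophil granules, measured 2460, 4070 and 6510 CPM, in the same order over the mice as Cdkn2c and Cdkn2d. Cdkn1c (15.8, 24.4 and 28.1 CPM) and Cdk2 (62.5, 83.3 and 99.2 CPM) had this order too, so it was not particular to the INK4 genes. The progenitor marker Mpo had the reverse order (933, 817 and 659 CPM), as did Hoxa9 and Meis1. The other markers of the line did not, and Prtn3 (979, 990 and 1030 CPM) and Fcgr3 (115, 131 and 140 CPM) had the order of Camp. Among the neutrophil genes, Lcn2, Cxcr2 and Padi4 did not share the order of Camp, while the rest of that list did. No such order over 3 mice was tested. Of 10 monocyte and macrophage genes 6 were tested, 5 higher and 1 lower, with sums of 91.8 to 109 CPM in ON and 146 to 205 CPM in OFF, and C1qa, C1qb, C1qc and Cd163 stayed under 1 CPM. Erythroid genes summed to 150 to 212 CPM in ON and 578 to 934 CPM in OFF, all 5 tested of 10 higher, with Klf1, Epor and Car1 under 1 CPM in every library. Megakaryocyte genes summed to 32.9 to 37.8 CPM in ON and 55.9 to 66.9 CPM in OFF, nearly all of it Gp1bb. The part of these changes in cell makeup or maturity in the changes of the cyclins and inhibitors was not tested. Stromal and endothelial genes, a possible other source of Ccnd1, summed to 6.82 to 10.3 CPM in ON and 7.91 to 11.7 CPM in OFF. These sums were mostly Pecam1, with Lepr, Emcn and Tek at 0, and say little about the other genes. Col1a1 held at least 0.456 CPM in ON and at most 0.333 CPM in OFF. Col1a2 held at least 0.569 CPM in ON and at most 0.557 CPM in OFF. Both had too few counts to be tested, and the rest of the list overlapped between the groups or was at 0. The part of stromal RNA in the fall of Ccnd1 was not tested. B lymphoid, T and NK, and basophil and mast cell lists summed to at most 2.51, 3.08 and 9.59 CPM.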

How the data were processed

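RNA from sorted leukaemic cells of 6 mice was made into 3' libraries with the Lexogen QuantSeq kit, per the labels' protocols. The submitters' processing notes name HISAT2 2.0.4, Subread 1.6.3 with featureCounts, limma 3.42.2 and genome build mm10. Nothing in the sources used here states the annotation, the strand setting or the treatment of reads in overlapping genes. As deposited, the authors' main table held raw counts for 54838 rows, of which 1105 had no name (0.145% to 0.172% of counts) and were left out. A second deposited table holds log2 values for 12287 genes, made by the authors with voom and limma, and served as an alternative.

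Counts were tested in R 4.3.3 with edgeR 4.0.16: filterByExpr (minimum count 10, minimum total 15), TMM scaling, glmQLFit with robust dispersions and glmQLFTest, OFF against ON with no covariate, Benjamini-Hochberg adjusted over 13652 rows at 0.05. An SE is the log2 fold change divided by the square root of F. The 95% intervals of log2 fold changes come from this fit and include the spread between mice, whereas the limit that a count of 0 allows covers counting error only. Gene overlaps used GENCODE on GRCm38, and the last 500 bases of each transcript were searched for copies with at least 90% identity over 200 bases. The test was checked on simulated data. Alternatives were RLE scaling, DESeq2 1.42.0, no filter, at least 10 CPM in 3 libraries, removal of ribosomal RNA rows, limma 3.58.1 on the authors' log2 values, each library left out, and a replicate block.

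The members, lists and ratios were chosen with earlier results of these data known. All members were named, as were list genes called with a log2 fold change of at least 1 in size, the 3 with the smallest p in each list, and rows that overlap a member. Other called list genes (Ccnb2, Ccnt1 and Cdk8 among them), and Pcna, E2f1 and Skp2, were named after their values were seen. So were the neutrophil gene Camp, the marker Mpo, the markers set beside these for their order, Col1a1 and Col1a2, and the ratios to Cdk6. Replicate numbers did not pair the mice.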

Additional observations from a re-analysis of the deposited data

How the results depend on the processing

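Over 13 alternatives, 124 of 130 values of single members kept their direction and their side of the threshold. Ccnd1 (-3.64 to -3.52), Ccnd2 (-3.39 to -2.92), Cdkn1a (-1.56 to -1.40), Cdkn1b (0.549 to 0.731) and Cdkn2c (0.93 to 1.20) were called in every one. Rb1 ranged from 0.36 to 0.556. The sign turned for 3 genes that did not pass: leaving out each library gave Ccnd3 -0.214 to 0.00276 and Cdk6 -0.0349 to 0.115, turning without OFF replicate 1, and Cdkn2d -0.0896 to 0.277, turning without OFF replicate 3. Leaving out each library gave 5 to 7 members called, 3293 to 5444 rows called, and 16 to 33 list genes called against 26, the lowest without ON replicate 3. DESeq2 called 4012 rows and the same number of members, 6. With a replicate block, 4403 rows, 6 members and 19 list genes were called. Same-numbered mice correlated at 0.0348, -0.0759 and -0.0504 in their deviations from the group means, and not every mouse correlated best with its own number. Depth limits the OFF levels of Ccnd1 and Ccnd2 (19 to 64 counts), and 3 mice per group limit all tests.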

Other observations

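Rows just after the 3' ends of the members were read beside them. The transcript 9630013D21Rik lies 3023 bases after Cdkn2c on the same strand, and changed by the same log2 value of 1.05 (edgeR adjusted p = 0.00623), from 5.63 to 11.7 CPM on average. Lockd, a long non-coding RNA 3579 bases after Cdkn1b on the same strand, gave 0.08 (adjusted p = 0.647), against 0.63 for Cdkn1b. Kri1, 441 bases after Cdkn2d on the same strand, gave -0.17 (adjusted p = 0.291). Whether reads of these rows belong to the members' transcripts was not tested.

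The spread among the OFF mice was wider than among the ON mice for 9 of the 10 genes in the coefficient of variation, as it was for 68.3% of all tested rows. The coefficient was 32.1% in OFF against 11.8% in ON for Ccnd2 and 25.8% against 3.57% for Cdkn2d. Cdkn1b was the exception that varied less in OFF (9.53% against 12.2%).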
